A study of Mus musculus with 22 samples.

Results

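The genes described here are 8 members of the peroxisome proliferator-activated receptor (PPAR) pathway in mouse kidney: the receptors Ppard and Ppara and the lipid genes Angptl4, Lpl, Cpt1a, Ehhadh, Acot12 and Pdk4. They were taken by name, out of 13967 genes tested, and each was read from the single probe set of the array that carries its symbol alone, so all 8 were measured and all 8 passed the filter on dim probe sets. The kidneys came from mice without Clock (clock(-/-), here KO) and from wild-type mice (WT), all from a colony bred from heterozygous pairs, entrained to a light-dark cycle and then held in constant darkness before they were killed. Both genotypes were sampled every 4 h from ZT0 to ZT20, counting hours (zeitgeber time) from the earlier lights-on at ZT0, with lights-off at ZT12. Each of the 22 arrays, 11 KO and 11 WT, held RNA pooled from 2 or 3 mice. There were 2 pools for each genotype and time, except KO at ZT16 and WT at ZT8, which had 1 pool each. The sources used here do not give the age or sex of the mice, and the labels name no tissue-specific promoter or Cre. All values are log2 expression, on which a difference of 1 is a doubling.

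PPARs are nuclear receptors that bind fatty acids and their derivatives, pair with retinoid X receptors, and switch on genes for taking up and burning fat. The proximal tubule of the kidney relies on fatty acid oxidation for the energy of transport, and PPARα is abundant there, while PPARδ is found more broadly. In liver and other tissues the receptors and several of their targets cycle over the day, and both the clock factors Clock and Arntl and the timing of food intake are known to act on them.

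The stretches of promoter shown are those of the receptor whose rhythm differed between the genotypes and of the cycling targets with a match to a receptor motif. The RefSeq promoter table (GRCm38.p6) held 6 of the 8 members, and the 250 bases before each start were searched on both strands. The Ppard window is chr17:28232504-28232753 on the plus strand, in which none of the motifs below was found. The AGGTCA core to which nuclear receptors bind was found in the windows of Cpt1a and Acot12, beginning 94 and 110 bases before the start listed in that table. Both matches lie inside the span that the RefSeq gene table gives for the gene, whose earliest start is farther upstream. The match is written in capitals, and lies on the minus strand, so that it reads TGACCT in the plus-strand sequence (chr19:3323197-3323222 for Cpt1a and chr13:91741401-91741426 for Acot12).
Ppard: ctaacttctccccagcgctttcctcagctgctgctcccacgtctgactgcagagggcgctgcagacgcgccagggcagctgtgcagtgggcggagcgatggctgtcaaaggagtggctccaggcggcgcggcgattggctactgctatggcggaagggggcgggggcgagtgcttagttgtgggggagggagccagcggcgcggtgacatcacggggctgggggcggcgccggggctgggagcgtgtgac
Cpt1a: gtttccttacTGACCTcctccccgca
Acot12: cgtaggacccTGACCTctcacctcct
Of all 32851 promoter windows, 14.02% held AGGTCA. The E-box CACGTG, which Clock and Arntl bind, was in 6.02% of them and in 0 of the 6 members' windows. CACGTT (3.85% of all windows), the D-boxes TTATGTAA and TTACGTAA (0.931% together) and the PPAR-type direct repeat AGGTCANAGGTCA (0.0335%, and each such repeat also holds the AGGTCA core) were likewise in 0 of 6. The Ppard window had a GC content of 69.6%, against a median of 52.4% over all windows.

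The arrays were close to each other, with medians between 5.88 and 6.01 and correlations across probe sets between 0.980 and 0.994. The Clock probe set averaged 8.96 in KO and 8.83 in WT (KO minus WT 0.13 ± 0.04 SE, limma adjusted p = 0.0398), and since it is not known whether its probes lie in the deleted part, it checks nothing about the genotype labels. All 8 proximal tubule markers passed the filter, with a summed linear level of 35422 to 39080 in KO and 35365 to 36830 in WT arrays, and 2 were higher and 1 lower in KO. Of other kidney cell types, 3 of 5 endothelial markers were higher and 0 lower (summed level 3483 to 4208 in KO and 3108 to 3772 in WT), as were 3 of 5 collecting duct markers (4315 to 4963 in KO and 4189 to 4754 in WT) and 2 of 3 distal convoluted tubule markers (5019 to 5779 in KO and 4259 to 5471 in WT). Of 3 thick ascending limb markers 1 was lower (12665 to 13675 in KO and 12474 to 14661 in WT). Their part in the members' differences was not tested. Of 6 adrenal cortex markers, 0 passed the filter. The 2 KO pools at ZT20 stood apart in 12 genes known to respond to androgen in mouse kidney: their mean was 8.83 and 8.46 there, against 9.39 to 10.8 in the 9 other KO arrays and 10.1 to 10.8 in WT. Pool 2 of KO ZT20 was also the lowest of all 22 arrays for 6 of the 8 members (Ppara, Angptl4, Ehhadh, Acot12, Pdk4 and Lpl). Calls of level and of rhythm in KO are therefore also given without these pools, and the part of whatever sets them apart was not tested. In whole kidney, fewer cells of a type and less RNA per cell cannot be told apart. Nothing in the labels says how the mice were divided between pools, so the p-values measure the spread between pools only.

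Ppard had a strong daily rhythm in both genotypes, and it peaked earlier in KO. In KO, the pools of ZT0 read 7.81 and 7.86, those of ZT4 7.56 and 7.22, those of ZT8 7.23 and 7.17, those of ZT12 7.42 and 7.52, that of ZT16 8.16, and those of ZT20 8.10 and 8.35. In WT, the pools of ZT0 read 8.17 and 8.42, those of ZT4 7.96 and 7.71, that of ZT8 7.13, those of ZT12 6.96 and 7.20, those of ZT16 7.69 and 7.41, and those of ZT20 8.15 and 8.21. Both KO pools thus lay below both WT pools at ZT0 and ZT4 and above them at ZT12. Both KO pools at ZT8 lay above the only WT pool, the KO pool at ZT16 lay above both WT pools, and at ZT20 the genotypes overlapped.

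A 24 h wave fitted to the Ppard values in limma had an amplitude (the distance from its mean to its peak) of 0.53 ± 0.05 (SE, 11 arrays) in KO, with its peak at ZT19.3 (95% interval 18.5 to 20.1). In WT the amplitude was 0.66 ± 0.05 (SE, 11 arrays), with the peak at ZT22.7 (22.1 to 23.4). The peak was 2.09-fold above the trough in KO and 2.49-fold in WT. The adjusted p of the rhythm was 0.000111 in KO, where Ppard had the lowest p of all genes, and 7.68e-07 in WT, where it ranked 4. The distance between the 2 waves was 0.53 on the log2 scale (adjusted p = 0.0141), which put Ppard among the 6 genes of 13967 (0.043%) whose rhythm differed between the genotypes. The other 5 were the clock genes Arntl and Nr1d1, the dopa decarboxylase gene Ddc, and Ypel2 and Rhobtb1. They are named after their values were seen. The peak came earlier in KO (KO minus WT -3.47 h, 95% interval -4.49 to -2.46), while the amplitudes differed by -0.13 ± 0.07 (SE). The shift stayed between -3.73 and -3.24 h when any 1 array was left out. The call of a differing rhythm was lost without WT ZT0 pool 2, without KO ZT0 pool 1 or without the KO ZT16 pool, with adjusted p of at most 0.0533. Without both KO ZT20 pools the distance was 0.53 (adjusted p = 0.0269).

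The mean level of Ppard over the cycle was 7.71 in KO and 7.68 in WT, a difference of 0.02 ± 0.05 (SE, adjusted p = 0.817), with a 95% interval of -0.09 to 0.13. Between KO and WT at single times, the differences ran from -0.46 at ZT0 and -0.44 at ZT4 to 0.39 at ZT12 and 0.61 at ZT16. None of these passed the adjustment over all genes, with adjusted p between 0.36 and 1.0.

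Ppara, the receptor that drives fatty acid oxidation in liver and proximal tubule, ran nearly opposite to Ppard. In KO, the pools of ZT0 read 8.99 and 8.98, those of ZT4 9.16 and 9.42, those of ZT8 9.11 and 9.37, those of ZT12 8.94 and 9.36, that of ZT16 9.05, and those of ZT20 8.94 and 8.66. In WT, the pools of ZT0 read 8.96 and 8.90, those of ZT4 9.19 and 9.09, that of ZT8 9.32, those of ZT12 9.39 and 9.35, those of ZT16 8.98 and 9.10, and those of ZT20 8.87 and 9.0. The genotypes overlapped at all times but ZT0, where both KO pools lay above both WT pools, and the KO pools were farthest apart from each other at ZT12, where they differed by more than WT pools did at any time.

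The Ppara wave had an amplitude of 0.23 ± 0.05 in KO, peaking at ZT7.33, and this missed the threshold (adjusted p = 0.0523). In WT it was 0.24 ± 0.06, peaking at ZT9.56, and passed (adjusted p = 0.026). The rhythms of the genotypes did not pass a test of their difference (adjusted p = 0.769), and the peak shift of -2.22 h had a 95% interval that included 0 (-4.76 to 0.32). The mean over the cycle was 9.08 in KO and 9.12 in WT (difference -0.05 ± 0.05, adjusted p = 0.588; interval -0.16 to 0.06). The WT call was lost in 5 of 22 fits that left out 1 array, with adjusted p up to 0.0733. In KO, 2 of those 22 fits passed, with adjusted p from 0.0276 to 0.314 over all 22. The KO amplitude was 0.18 without both KO ZT20 pools (adjusted p = 0.607). Across the 12 group means, Ppara and Ppard had a Pearson correlation of -0.90, given as a description, since the groups share their times of day.

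**Figure D1:**
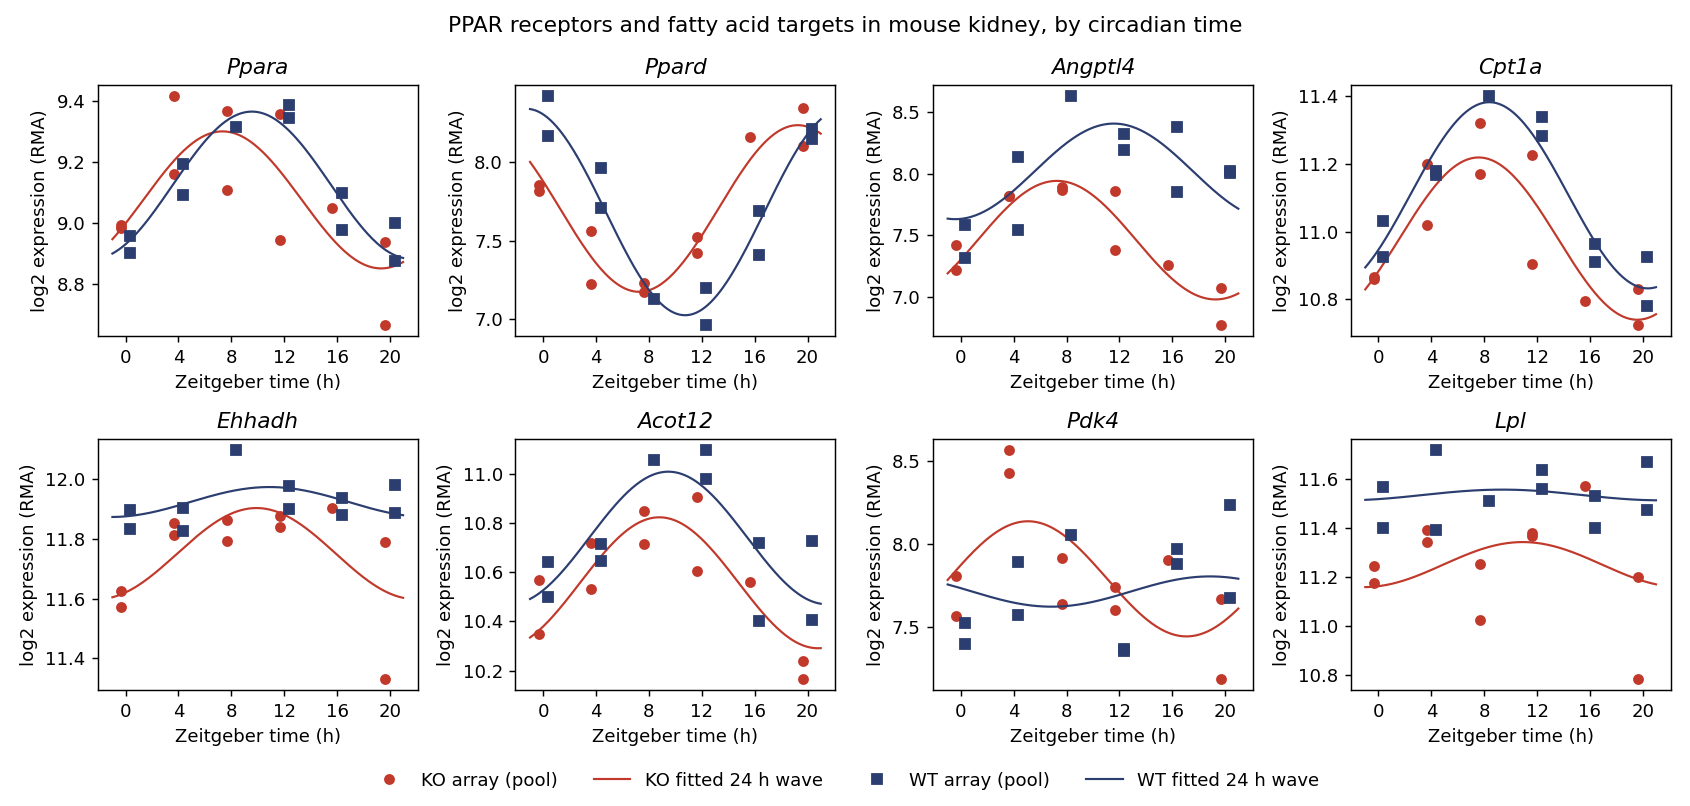
Log2 expression of the 8 genes against zeitgeber time in hours, with KO arrays as red circles, WT arrays as blue squares and the fitted 24 h wave of each genotype as a line. The Ppard waves peak far from those of Ppara and Cpt1a, and the KO wave of Ppard runs ahead of its WT wave. Angptl4 in KO lies below WT from ZT8 to ZT20.

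Among the targets, Angptl4 had the largest difference in level of the 8 members. It encodes a secreted protein that inhibits lipoprotein lipase and is a classical target of the PPARs. In KO, the pools of ZT0 read 7.42 and 7.22, those of ZT4 7.82 and 7.82, those of ZT8 7.89 and 7.87, those of ZT12 7.38 and 7.86, that of ZT16 7.25, and those of ZT20 7.07 and 6.77. In WT, the pools of ZT0 read 7.59 and 7.32, those of ZT4 8.14 and 7.54, that of ZT8 8.63, those of ZT12 8.32 and 8.19, those of ZT16 8.38 and 7.85, and those of ZT20 8.00 and 8.02. From ZT8 to ZT20 every KO array was below every WT array of its time, while at ZT0 and ZT4 the genotypes overlapped.

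The mean of Angptl4 over the cycle was 7.46 in KO and 8.02 in WT, a difference of -0.56 ± 0.09 (SE, adjusted p = 0.00057; 95% interval -0.75 to -0.36), so that KO held 67.9% of the WT level. The KO mean was below the WT mean at 6 of 6 times. The difference passed in all 22 fits that left out 1 array, with adjusted p of at most 0.00179, and without both KO ZT20 pools (-0.53, adjusted p = 0.0066). In the arrays of pool 1 alone it was -0.70 (adjusted p = 0.0013), and in those of pool 2 alone it was -0.34 and did not pass (adjusted p = 0.469). It grew to -1.09 ± 0.20 at ZT20, where KO had 0.47 of the WT level (adjusted p = 0.0131). The ZT20 call was lost without KO ZT20 pool 2 (adjusted p = 0.142) and without WT ZT20 pool 2 (adjusted p = 0.143).

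Angptl4 was rhythmic in both genotypes. Its amplitude was 0.48 ± 0.09 in KO, with the peak at ZT7.27 (adjusted p = 0.0172), and 0.39 ± 0.09 in WT, with the peak at ZT11.6 (adjusted p = 0.0332). The peak came earlier in KO as well (KO minus WT -4.30 h, 95% interval -6.80 to -1.81), and the shift stayed between -5.50 and -3.45 h when 1 array was left out. The test of the rhythm difference across all genes gave an adjusted p of 0.477 (unadjusted 0.00796), so the shift did not pass there. The KO rhythm was lost without either KO ZT20 pool (adjusted p = 0.0518 and 0.134) and without both (0.415). The WT rhythm was lost without ZT0 pool 1, ZT0 pool 2, the ZT8 pool, ZT12 pool 1 or ZT16 pool 1, with adjusted p of at most 0.121.

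Lpl, the lipase that frees fatty acids from circulating triglycerides and that Angptl4 inhibits, was lower in KO with no detected rhythm. KO arrays ran from 10.79 through a median of 11.25 to 11.57, and WT arrays from 11.39 through 11.53 to 11.72. The KO arrays lay below the WT arrays at all times but ZT16, where the only KO pool, at 11.57, lay above both WT pools (11.40 and 11.53). The mean over the cycle was 11.25 in KO and 11.53 in WT (difference -0.28 ± 0.07, adjusted p = 0.0137), or 82.2% of the WT level. It was -0.19 without both KO ZT20 pools and no longer passed (adjusted p = 0.0876). At ZT20 alone the difference was -0.58 ± 0.14 (adjusted p = 0.0458), a call that was kept in 5 of 22 fits that left out 1 array. Its adjusted p was 0.302 without KO ZT20 pool 2 and 0.447 without WT ZT20 pool 2. The amplitudes of Lpl were 0.09 in KO and 0.02 in WT (adjusted p = 0.802 and 0.976). Fat cells make much Lpl. Of 10 fat cell markers, 9 were measured and 7 passed the filter, and 0 of these differed between the genotypes in limma (0 also at an unadjusted p under 0.05). Their summed linear level was 341 to 1292 in KO and 376 to 613 in WT. The highest sum was in KO ZT8 pool 1, a single array, where Lpl was 11.03. The part of fat cells in the Lpl difference was not tested.

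Cpt1a, which controls the entry of long-chain fatty acids into mitochondria, cycled in both KO and WT. KO arrays ran from 10.72 through a median of 10.90 to 11.32, and WT arrays from 10.78 through 11.03 to 11.40. The amplitude was 0.24 ± 0.04 in KO, peaking at ZT7.58 (adjusted p = 0.00743), and 0.27 ± 0.04 in WT, peaking at ZT8.39 (adjusted p = 0.00132). Both rhythms passed in all 22 fits that left out 1 array. The KO amplitude was 0.27 without both KO ZT20 pools, but the call was lost (adjusted p = 0.12). The peak shift was -0.80 h (95% interval -2.56 to 0.95), which included 0, and the test of the rhythm difference did not pass (adjusted p = 0.875). The mean was 10.98 in KO and 11.11 in WT, a difference of -0.13 ± 0.04 that just missed the threshold (adjusted p = 0.0508). The KO mean was below the WT mean at 6 of 6 times.

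Acot12, a cytosolic thioesterase that splits acetyl-CoA, cycled in both genotypes too. KO arrays ran from 10.17 through a median of 10.57 to 10.91, and WT arrays from 10.40 through 10.71 to 11.10. Its amplitude was 0.27 ± 0.06 in KO, with the peak at ZT8.79 (adjusted p = 0.0387), and 0.27 ± 0.06 in WT, with the peak at ZT9.47 (adjusted p = 0.0302). The peak shift of -0.68 h had a 95% interval of -3.24 to 1.87, and the rhythm difference an adjusted p of 0.967. Its mean was 10.56 in KO and 10.74 in WT, and the difference of -0.18 ± 0.06 did not pass (adjusted p = 0.0646). The rhythm was lost in 7 of 22 fits that left out 1 array for KO (adjusted p up to 0.19) and in 5 of 22 for WT (up to 0.103). The KO rhythm had an adjusted p of 0.577 without both KO ZT20 pools.

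Ehhadh, the bifunctional enzyme of peroxisomal fatty acid oxidation, was lower in KO and had no detected rhythm. KO arrays ran from 11.33 through a median of 11.81 to 11.90, and WT arrays from 11.83 through 11.90 to 12.10. The mean was 11.75 in KO and 11.92 in WT, a difference of -0.17 ± 0.05 (adjusted p = 0.0268), or 88.8% of the WT level. The KO mean was below the WT mean at 6 of 6 times. The call was lost without WT ZT8 pool 1 (adjusted p = 0.0713), without KO ZT8 pool 1 (0.0518), and without both KO ZT20 pools (-0.15, adjusted p = 0.0551). The amplitudes of Ehhadh were 0.15 in KO (adjusted p = 0.177) and 0.05 in WT (adjusted p = 0.764).

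Pdk4, a kinase that shuts down pyruvate dehydrogenase and so favours fat over glucose, showed no call in any test. KO arrays ran from 7.19 through a median of 7.74 to 8.57, and WT arrays from 7.36 through 7.68 to 8.24. The highest KO arrays were the 2 pools at ZT4, at 8.43 and 8.57, against 7.57 and 7.90 in WT at that time. That difference of 0.76 ± 0.18 had an adjusted p of 0.809, in a comparison in which 0.00716% of all genes passed as higher at ZT4. The mean was 7.79 in KO and 7.72 in WT (difference 0.08 ± 0.13, adjusted p = 0.731; 95% interval -0.19 to 0.34). The wave had an amplitude of 0.35 ± 0.13 in KO (adjusted p = 0.372) and 0.09 ± 0.13 in WT (adjusted p = 0.886).

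In the count over the 8 members, 3 (Angptl4, Lpl and Ehhadh) differed in mean level, all lower in KO, against 9.14% of all genes that differed in either direction with 3.9% lower and 5.23% higher. Without both KO ZT20 pools 1 of the 3 was left, Angptl4, and 4.58% of all genes differed. The median difference was -0.15 over the members and 0.00402 over all genes. The KO mean was below the WT mean at all 6 times for 3 members (Angptl4, Cpt1a and Ehhadh) and for 6.36% of all genes. At single times 2 members were lower at ZT20, Angptl4 and Lpl, against 1.04% of all genes lower and 0.709% higher then. At the other times 0 of 40 differences were called in limma. Of all genes, 0.0215% were called higher at ZT0, 0.0286% at ZT8 and 0.115% at ZT12, and 0 or 0.00716% in each other direction and time before ZT20. Of those 40, 11 had an unadjusted p under 0.05. The share of all genes at an unadjusted p under 0.05 was not counted, here or for the lists below. Such counts therefore have no comparison. A daily rhythm was called in KO for 4 of 8 members (Ppard, Angptl4, Cpt1a and Acot12), against 2.46% of all genes, and in WT for 5 of 8 (the same 4 genes and Ppara), against 6.48%. Without both KO ZT20 pools Ppard alone kept its KO call (adjusted p = 0.0101), and 0.0859% of all genes had one. The rhythm differed between the genotypes for 1 of 8, Ppard. In limma fits of the arrays of a single pool number, which have fewer samples, 1 member (pool 1) and 0 (pool 2) differed in level, 0 and 0 were rhythmic in KO, 1 and 0 were rhythmic in WT, and 0 and 0 differed in rhythm. The median amplitude was 0.25 in KO and 0.26 in WT over the members, against 0.07 in KO and 0.09 in WT over all genes. The members were chosen with earlier results of these data known, so their counts beside all genes are a description.

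**Figure D2:**
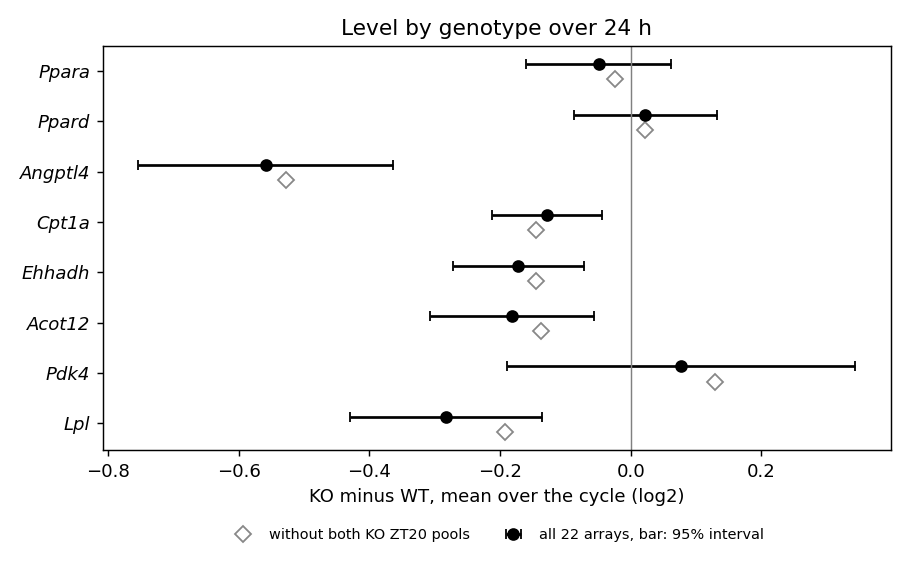
KO minus WT difference of the mean over the cycle on the log2 scale for each gene, as black circles with 95% intervals from all 22 arrays, and as open diamonds without both KO ZT20 pools. Angptl4 lies at -0.56, Lpl at -0.28 and moves to -0.19 without those pools, and both receptors lie near 0.

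Ppard peaked far from Ppara and from the cycling targets. In WT, Ppard peaked 13.2 h after Ppara (95% interval 11.5 to 14.9). The WT peak of Angptl4 came 2.02 h after that of Ppara (-0.13 to 4.17), that of Cpt1a just before it (difference -1.17 h, -2.57 to 0.23) and that of Acot12 at almost the same time (difference -0.09 h, -1.51 to 1.34). All 3 of these intervals included 0, so no target was separated from Ppara. All 3 targets were instead far from Ppard, and peaked 12.8 h (Angptl4, 10.7 to 14.98), 9.65 h (Cpt1a, 8.44 to 10.9) and 10.7 h (Acot12, 8.94 to 12.5) after it.

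In KO the targets again peaked far from Ppard, at 12.0 h (Angptl4, 10.2 to 13.9), 12.3 h (Cpt1a, 10.9 to 13.8) and 13.5 h (Acot12, 11.5 to 15.5) after it. Set beside the WT lags, that of Angptl4 was 12.0 h in KO and 12.8 h in WT, that of Cpt1a 12.3 h in KO and 9.65 h in WT, and that of Acot12 13.5 h in KO and 10.7 h in WT. The intervals of the 2 genotypes overlapped for Angptl4 and Acot12. For Cpt1a they lay side by side without overlap, ending at 10.855 h in WT and beginning at 10.856 h in KO. Differences between the lags were not tested. Ppara in KO was not called rhythmic, so no lag is read from it. The KO rhythms of the 3 targets lost their calls without both KO ZT20 pools (limma adjusted p = 0.415 for Angptl4, 0.12 for Cpt1a and 0.577 for Acot12). Their fitted KO peaks were then at ZT7.26, ZT7.55 and ZT9.39, and that of Ppard at ZT19.3. The KO lags and intervals given here are from all arrays. Among genes called rhythmic with all arrays, 57.1% of 343 in KO and 39.8% of 905 in WT peaked within 2 h of ZT8. The Ppard peak fell within 2 h of ZT20 in KO, as for 20.7% of rhythmic genes there, and within 2 h of ZT0 in WT, as for 14.3%. These KO shares depend on both KO ZT20 pools. Without those pools 12 of 13967 genes were called rhythmic in KO, and the shares of peak times were not counted again.

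The shifts can be set beside all 158 genes that were rhythmic in both genotypes (1.13% of those tested). Of these, 149 peaked earlier in KO, and the median shift was -2.17 h. Ppard, at -3.47 h, had 19 genes with a larger shift to earlier times, and Angptl4, at -4.30 h, had 7. Cpt1a and Acot12, at -0.80 and -0.68 h, shifted less than the median, with 126 and 132 genes shifted farther. The set of 158 depends on both KO ZT20 pools, since 12 genes in all were called rhythmic in KO without them. The ranks were not repeated in that fit. The shifts were then -3.47 h for Ppard, -4.31 h for Angptl4, -0.83 h for Cpt1a and -0.07 h for Acot12.

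**Figure D3:**
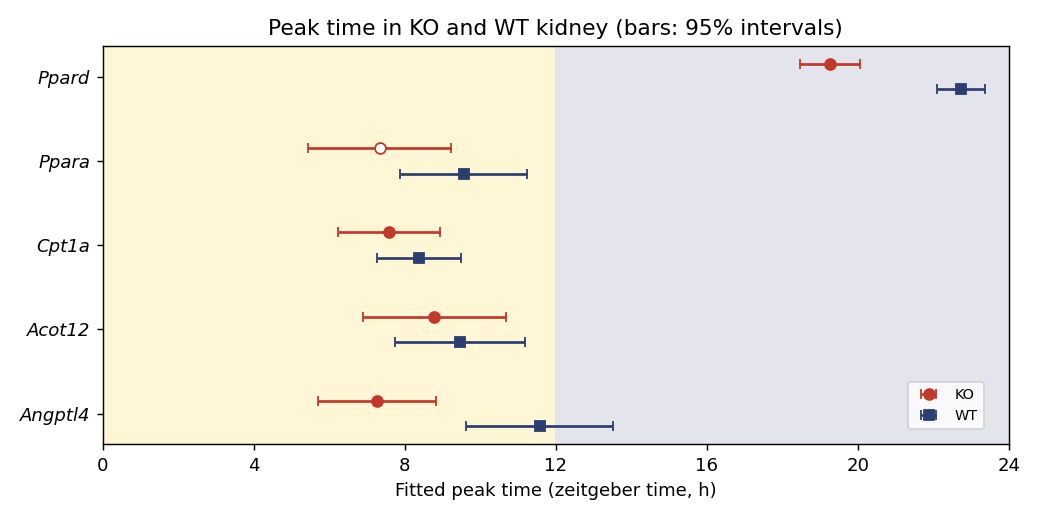
Fitted peak time in hours of zeitgeber time for the receptors and the cycling targets, KO (red circles) above WT (blue squares), with 95% intervals. The open circle is Ppara in KO, whose rhythm missed the threshold, and the shading marks the hours of light (left) and dark (right) in the cycle before constant darkness. The WT peak of Ppard lies at ZT22.7 and its KO peak at ZT19.3, far from the peaks of the other genes between ZT7.27 and ZT11.6.

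**Figure D4:**
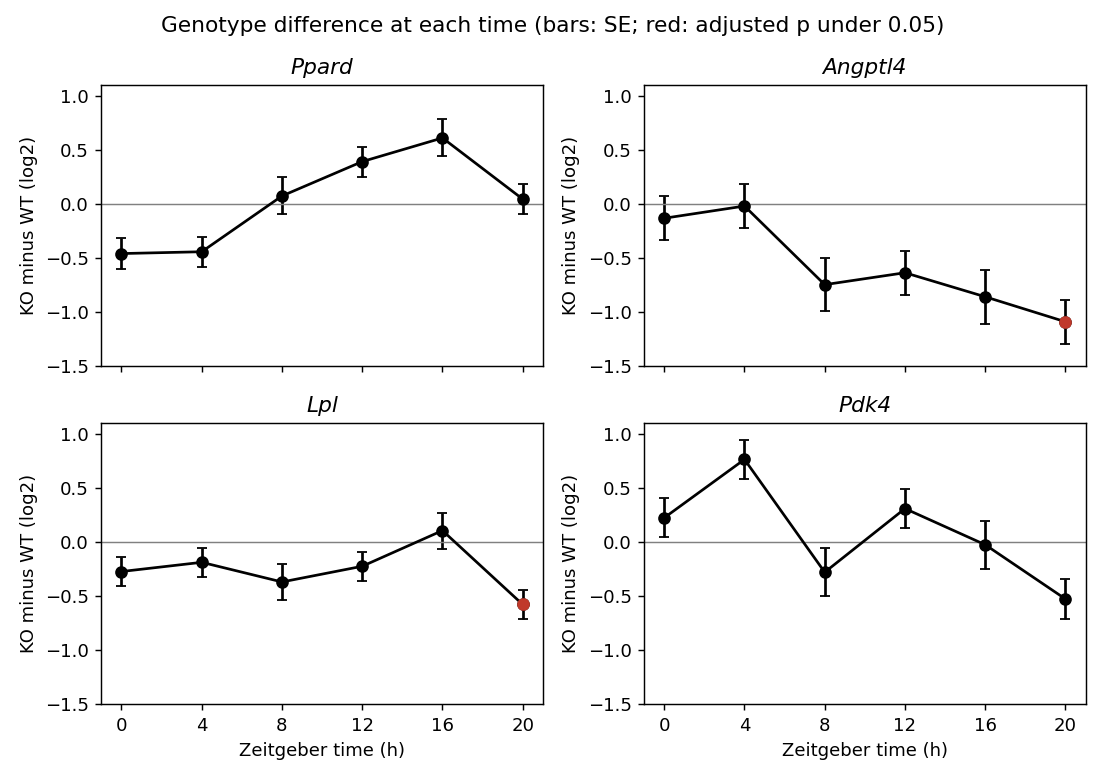
KO minus WT difference (log2) at each zeitgeber time for Ppard, Angptl4, Lpl and Pdk4, with SE bars, and red points where the adjusted p passed. The Ppard difference is below 0 at ZT0 and ZT4 and above 0 at ZT12 and ZT16, and Angptl4 falls to -1.09 at ZT20.

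The genes with the profile most like each member were found by Pearson correlation over the 12 group means, given as a description. For Ppard they were the endoplasmic reticulum chaperone genes Calr (0.95) and Pdia3 (0.92), with Cmip (0.93) between them. For Ppara they were Zswim7, Surf1 and Impact (all 0.94). Zswim7 (0.98) also led for Cpt1a, before Gstt2 (0.97) and Gpihbp1 (0.96), the last of which anchors Lpl at the capillary wall. For Angptl4 they were the mitochondrial carriers Slc25a42 (0.95) and Slc25a10 (0.94) and the gene 4930412M03Rik (0.94). For Acot12 they were Cyp4f13 (0.96), Nudt12 (0.96) and Tmem234 (0.95), and for Ehhadh Aldh9a1 (0.93), the peroxisomal thiolase Acaa1b (0.93) and Znrf2 (0.92). For Lpl they were Slc22a26 (0.94), Tmem176b (0.94) and Slc17a1 (0.92). Pdk4 had the weakest likenesses, at 0.85 for Sele and 0.82 for Camk2b and Rimkla.

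Around the members, 7 lists of related genes were read in the same fit, and their counts stand against 3.9% of all genes lower in KO, 5.23% higher, 2.46% rhythmic in KO and 6.48% rhythmic in WT. Among 11 PPAR receptors, partners and coregulators, 1 fell in KO and 0 rose in limma (1 at an unadjusted p under 0.05). The gene that fell was Lpin1, a phosphatidate phosphatase that also coactivates PPARα (-0.34 ± 0.07), so 1 of 11 genes differed, near the 9.14% of all genes. Lpin1 was rhythmic in both genotypes, with peaks at ZT8.92 in KO and ZT10.6 in WT. With Ppard it made 2 rhythmic genes of the list in KO, and with Ppara 3 in WT. Its KO rhythm was lost without both KO ZT20 pools (amplitude 0.23, adjusted p = 0.503), which left 1 in KO, while its lower level kept its call (-0.29, adjusted p = 0.0284). Among 18 other known PPAR targets, 1 rose and 4 fell. The rise was in Cyp4a14, a fatty acid hydroxylase, which averaged 10.93 in KO and 9.61 in WT (1.32 ± 0.25, adjusted p = 0.0016). The strongest falls were in the fatty acid transporter Cd36 (-0.52 ± 0.06), the carrier Slc25a42 (-0.33 ± 0.07) and the lipid droplet gene Plin5 (-0.22 ± 0.06). The other gene that fell was Plin2 (-0.12), and the list's median was -0.07. In this list Plin2 and Vnn1 were rhythmic in KO and Slc22a5 and Txnip in WT. In near-identical families such as Cyp4a, array probes can also bind a relative's transcript.

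Of 17 genes of peroxisomal fatty acid oxidation, 7 fell in KO and 2 rose, with a median of -0.08. The falls were led by the oxidase Acox3 (-0.33 ± 0.06), the isomerase Eci2 (-0.21 ± 0.05) and the thiolase Acaa1b (-0.21 ± 0.05). The rises were in Hacl1, of fatty acid α-oxidation (0.42 ± 0.07), and Acox2, of bile acid and branched-chain oxidation (0.30 ± 0.05). Acox3, Eci2, Abcd3 and Pex11a were rhythmic in KO, and Eci2 and Decr2 in WT. Of 18 genes of mitochondrial fatty acid oxidation, 3 fell (Acads -0.20 ± 0.05, Cpt2 -0.18 ± 0.04, Acadl -0.12 ± 0.03) and 2 rose (Acaa2 0.18 ± 0.04, Hadhb 0.13 ± 0.04), with a median of -0.03. Cpt1a and Cpt2 were rhythmic in KO, and Cpt1a and Slc25a20 in WT. Of 11 acyl-CoA thioesterases, Acot11 (-0.26 ± 0.06) and Acot8 (-0.11 ± 0.03) fell and Acot3 rose (0.22 ± 0.06). Acot12 was rhythmic in both genotypes and Acot11 in WT. The median of the thioesterases was -0.02.

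Of 13 genes of the lipoprotein lipase system, 2 fell (Angptl4 and Lpl) and 2 rose, the lipoprotein gene Apoe (0.30 ± 0.06) and the sorting receptor Sort1 (0.18 ± 0.04), with a median of -0.05. A list of pyruvate dehydrogenase control, with 13 genes, held 2 that fell, Mpc1 and Pdk3, and 1 without both KO ZT20 pools, Mpc1 (-0.22). In WT, Angptl4, the lipase gene Pnpla2 (ZT8.44) and Gpihbp1 (ZT8.45) were rhythmic in the lipase list, and in KO Angptl4 alone was called. Without both KO ZT20 pools the lipase list held 2 genes higher, 2 lower and 3 rhythmic in WT. In KO 0 were rhythmic in limma (4 at an unadjusted p under 0.05). Lpl was not among the 2 lower genes in that fit (limma adjusted p = 0.0876), so they are not the same pair. The 4 lists of targets, mitochondrial and peroxisomal oxidation and thioesterases held 64 different genes, of which 6 rose and 16 fell. Of these, 3 are members, and the other 61 held 6 that rose and 15 that fell, 7 rhythmic in KO and 6 in WT. Rhythms were called for 9 of the 64 in KO, all with peaks between ZT6.93 and ZT9.60, and for 8 in WT, with peaks between ZT8.39 and ZT13.5. Without both KO ZT20 pools 3 rose and 8 fell, 0 were rhythmic in KO in limma (11 at an unadjusted p under 0.05) and 8 were in WT. Of all genes, 4.58% then differed in either direction, 1.9% fell, 0.0859% were rhythmic in KO and 844 of 13967 were rhythmic in WT. Of the 17 peroxisomal genes 2 rose and 4 fell in that fit, and of the 18 mitochondrial genes 0 rose (3 at an unadjusted p under 0.05) and 1 fell. Cd36 (-0.47), Acox3 (-0.29), Eci2 (-0.20), Slc25a42 (-0.33), Acadl (-0.13), Acot11 (-0.24), Cyp4a14 (1.27), Hacl1 (0.36) and Acox2 (0.28) kept their calls without those pools. Of the other genes named for these 4 lists as changed in level, Plin5, Plin2, Acaa1b, Cpt2, Acads, Acot8, Acaa2, Hadhb and Acot3 lost theirs. Their adjusted p in limma ran from 0.0561 (Acot8) to 0.197 (Plin5).

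**Figure D5:**
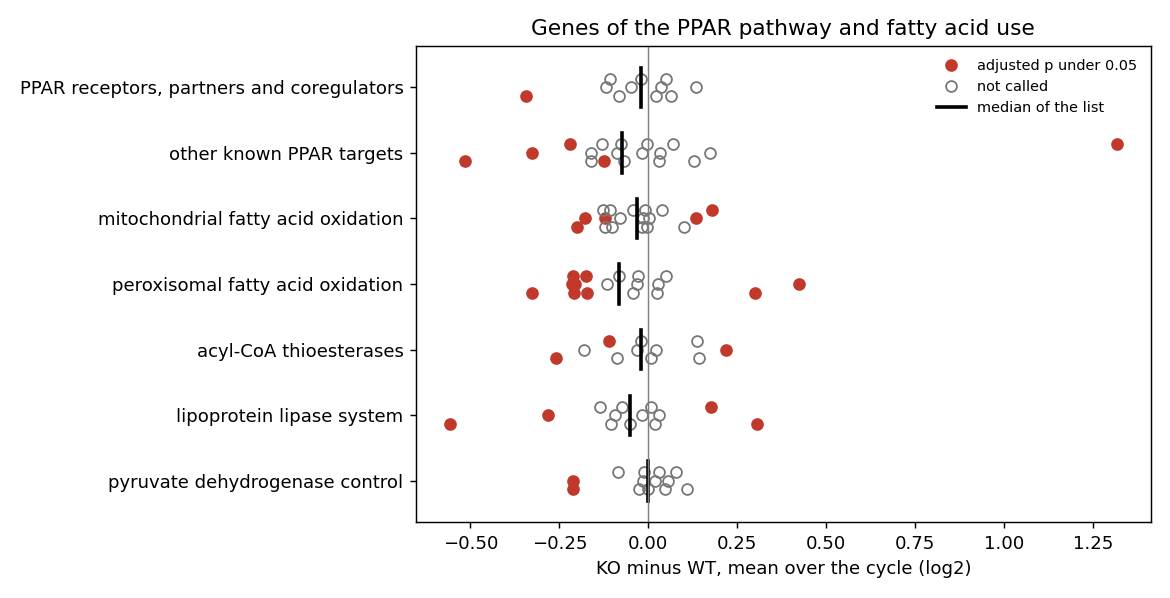
KO minus WT difference of the mean over the cycle (log2) for each gene of the 7 lists, in red where the adjusted p passed and open where it did not, with the median of each list as a black bar. The list medians lie between -0.08 and 0, and Cyp4a14 stands alone at 1.32.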

How the data were processed

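Kidney RNA was measured on 22 arrays. The values the authors deposited are log2 expression per probe set. Per the submitters' processing notes RMA made them, which equalises the arrays' distributions, so a shift common to all genes is not visible, and the number of arrays limits the precision. Of 35556 probe sets, 21789 have 1 gene symbol in the platform annotation, 1621 several, and 12146 are not listed there. The brightest 1-symbol probe set of a gene was kept if its mean was above the 30th percentile (5.21), which left 13967 genes.

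A mean, cosine and sine of 24 h per genotype were fitted in limma 3.58.1 (R 4.3.3) to all arrays (16 residual degrees of freedom), single times with a mean per group (10), Benjamini-Hochberg adjusted over all genes at 0.05. In the single-time fit the groups with 1 pool are assumed to vary like the others. Intervals are 95%, and those of peak times follow from the coefficients' errors. The scripts were tested on simulated data. Named genes are the members, the 3 most correlated with each, and per list up to 3 called genes with the largest difference in each direction and the largest WT amplitude. Other genes were named after their values were seen. Members and lists were chosen with earlier results of these data known. Alternatives covered the filter, normalization, prior, weights, replicate block and left-out arrays.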

Additional observations from a re-analysis of the deposited data

Results flagged for a closer look

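The rhythm of Ppard differed between the genotypes. The waves of Ppard in KO and WT were 0.53 apart on the log2 scale, by a test of that difference (adjusted p = 0.0141, limma). At single times KO minus WT for Ppard was 0.61 at ZT16 and -0.46 at ZT0, with every KO array above every WT array at ZT16 and below at ZT0. For 2 other genes all KO arrays lay above all WT arrays at some times and below them at others, without a test of that change. The sign of the mean difference also varied between times for Ppara and Acot12, but without such separation in both directions. Pdk4 had a difference of 0.76 at ZT4, where both KO pools lay above both WT pools, and of -0.53 at ZT20, where both KO pools lay below both WT pools. For Lpl the difference was 0.11 at ZT16 and -0.58 at ZT20. The KO side at ZT16 is 1 pool, and these pairs of times were not tested against each other. None of the single-time differences of Ppard and Pdk4 passed the adjustment. The test of the rhythm difference for Pdk4 gave an adjusted p of 0.669 and that for Lpl 0.944. No group had enough arrays at a single time for a check of outlying arrays.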

How the results depend on the processing

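The alternatives without the ZT20 pools of both genotypes and 3 of those for single times were added after seeing the data. The count of members that differed in mean level, 3, became 5 with probe sets below the 50th percentile left out, with the replicate block, with a trended robust prior and with array weights. It became 1 with pool 1 arrays alone, without both KO ZT20 pools and without all ZT20 pools, and 0 with pool 2 arrays alone in limma, and it ran from 2 to 5 when 1 array was left out. The 4 members rhythmic in KO became 0 with pool 1 or pool 2 arrays alone, and 1 without both KO ZT20 pools, without all ZT20 pools and with a free level at each time (2 to 5 with 1 array left out). The count was 2 without either KO ZT20 pool. The 5 members rhythmic in WT became 3 with quantile normalization repeated and in WT arrays alone, 1 with pool 1 arrays or a free level, and 0 with pool 2 arrays (2 to 5 with 1 array left out). It was 2 without the ZT8 pool or ZT12 pool 1 and 3 without ZT0 pool 1 or 2, ZT12 pool 2 or ZT20 pool 1. The rhythm difference, 1 member, became 0 with pool 1 or pool 2 arrays alone, without all ZT20 pools and with a free level (0 to 1 with 1 array left out). The distance between the Ppard waves stayed between 0.49 and 0.63 in all the alternatives that fitted waves. With a free level no wave is fitted, so there is no such distance, and the limma adjusted p for Ppard was 0.422. The 2 single-time calls became 1 with the replicate block, with no filter on dim probe sets and with array medians subtracted (0 to 3 with 1 array left out). Pdk4 turned to a mean difference of -0.078 with pool 2 arrays alone, against 0.077 in all arrays. The arrays of 1 pool are fewer samples. The cause of the other changes was not tested.

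The labels do not say whether pool numbers pair the samples, and the values did not settle it. Over 45 pairs of groups the correlation of the pool difference across genes ran from -0.41 to 0.55. The median was 0.12, and 25 were above 0.1. The replicate block raised the calls of mean differences over all genes to 1405, against 1276, and added Cpt1a (adjusted p = 0.0314) and Acot12 (0.0354) to the members called, and Lpl at ZT20 lost its call (adjusted p = 0.0504). With array medians subtracted, 76.4% of the calls were higher in KO, against 57.3% as deposited and 53.9% after repeated quantile normalization, and no member changed sign under these scalings. Over all genes, the number called for mean level was 2351 with array weights, 823 with a free level, 639 without both KO ZT20 pools, 565 with pool 1 arrays, 434 without all ZT20 pools and 1 with pool 2 arrays. For rhythm in KO it was 697 with array weights, 228 with no filter, 195 in KO arrays alone, 59 with a free level, 12 and 8 without the KO or all ZT20 pools and 0 in either pool alone, against 343. For WT it was 510 without all ZT20 pools, 363 in WT arrays alone, 140 with a free level, and 95 and 14 in pools 1 and 2, against 905. For the rhythm difference it ran from 0 to 11, against 6, and for single times it was 165 with no filter, against 258.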

Other observations

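Of 13 genes that control pyruvate dehydrogenase, a list that holds Pdk4, the mitochondrial pyruvate carrier Mpc1 (-0.21 ± 0.04) and the kinase Pdk3 (-0.21 ± 0.06) were lower in KO and 0 were higher in limma (1 at an unadjusted p under 0.05). The kinase Pdk2 (amplitude 0.21, peak ZT7.90) and the phosphatase Pdp2 (0.22, peak ZT3.66) were rhythmic in WT, and 0 of 13 were called in KO in limma (2 at an unadjusted p under 0.05). Of 13 glucocorticoid-responsive genes, 3 were rhythmic in KO and 10 in WT, and the chaperone gene Fkbp5 was lower in KO (-0.49 ± 0.08). Without both KO ZT20 pools 0 of these 13 were rhythmic in KO in limma (8 at an unadjusted p under 0.05) and 10 in WT. The counts of this list and of the clock and androgen lists below stand against 2.46% of all genes rhythmic in KO and 6.48% in WT. For counts at an unadjusted p under 0.05 no share of all genes was counted. Of all genes, 3.9% were lower and 5.23% higher in KO. Without both KO ZT20 pools 0.0859% of all genes were rhythmic in KO and 844 of 13967 in WT, while 1.9% were lower and 4.58% differed in either direction. Of 14 clock genes and PAR bZIP factors, 7 were rhythmic in KO and 14 in WT, with 4 higher and 6 lower in KO in mean level. In the fit that left out both KO ZT20 pools 1 was rhythmic in KO (12 at an unadjusted p under 0.05) and 14 in WT, with 3 higher and 6 lower. Of the 12 androgen-responsive genes, 9 were lower and 1 higher in KO, and 7 were rhythmic in KO against 0 in WT in limma (0 in WT also at an unadjusted p under 0.05). Without both KO ZT20 pools 8 were lower and 1 higher, and 0 were rhythmic in limma in either genotype (4 in KO and 0 in WT at an unadjusted p under 0.05).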
